A study of Mus musculus with 221 samples.

Results

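The genes of the cytosolic ribosomal proteins were followed in single early 2-cell mouse embryos whose fathers had eaten either high-fat food (HFD) or low-fat food (LFD). Members were taken by symbol, as every Rpl or Rps gene with a number, plus Rpsa, Rplp0, Rplp1 and Rplp2, without the genes named as pseudogenes and without the Rps6k kinases. This gave 90 of 55291 genes in the count table, 54 named for the large subunit and 36 for the small subunit. Of these, 84 had enough counts to be tested among 14820 genes, 51 of the large and 33 of the small subunit. The 6 that were not tested are Rpl24 and 5 gene copies that the GENCODE annotation lists as processed pseudogenes (Rps12l1, Rps3a2, Rps3a3, Rpl6l and Rpl32l).

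All embryos had C57BL/6N nuclear DNA, from C57BL/6N sperm and from oocytes of C57BL/6N-mtST females, which carry the mitochondrial DNA of the Staudach (ST) line, and they differed by the diet of the sire. There were 99 LFD embryos and 23 more than that number of HFD embryos, each sequenced alone after amplification of its polyadenylated RNA by Smart-seq2. Frozen and thawed sperm of 4 males per diet was used, an HFD and an LFD male on each date, and the labels do not say which embryo came from which male or date. The tests below therefore measure the spread between embryos that share sires, and their p-values are too small for a statement about males.

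A ribosome reads mRNA in its small subunit and joins amino acids in its large subunit, and each subunit is a frame of ribosomal RNA covered by proteins that are mostly present once per ribosome. The growing oocyte stores ribosomes and their mRNAs, and at the early 2-cell stage maternal mRNA is being cleared while the embryonic genome is switched on. Most ribosomal protein mRNAs of mammals are TOP mRNAs, which begin with a C and a run of pyrimidines through which mTOR signalling and Larp1 control their translation. Several ribosomal proteins also have a second gene, such as Rps27l beside Rps27, and many have processed pseudogenes of nearly the same sequence.

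The first bases of 5 genes on which the results turn are shown with the pyrimidine run in capitals where there is one. Each line gives 10 bases before and 20 bases from the annotated start on the transcribed strand, from RefSeq on GRCm38.p6. Rps27, Rpl38 and Rps28 are the members called in the diet comparison. Rps27l is the paralog of Rps27 with the higher counts, and Rps15a had the most negative slope on developmental timing.
Rps27 (chr3:90213629-90213658, minus strand): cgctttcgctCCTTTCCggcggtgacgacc
Rpl38 (chr11:114668570-114668599, plus strand): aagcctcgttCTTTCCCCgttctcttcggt
Rps28 (chr17:33824543-33824572, minus strand): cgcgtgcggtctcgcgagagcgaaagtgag
Rps27l (chr9:66946076-66946105, plus strand): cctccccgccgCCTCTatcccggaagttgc
Rps15a (chr7:118116128-118116157, minus strand): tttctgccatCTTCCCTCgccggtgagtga
The run was searched as a C followed by C or T up to at least 5 bases, beginning within 5 bases of the annotated start. It was found in 30 of the 65 members with a promoter entry (46.2%), in 21.2% of all 27025 genes with an entry and in 23.6% of the 10455 tested genes with an entry. Of the genes shown, Rps28 has no such run in this window, and the second annotated start of Rps27l has none either.

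The libraries held 1937251 to 17246791 counts, with a median of 5706066, and 8 libraries, 4 of each diet, detected fewer than 15000 genes. The summed level of 12 early 2-cell markers was 10.98 ± 0.343 in HFD and 10.93 ± 0.311 in LFD embryos (log2 CPM, counts per 1e6 counts of the library, SD), 11 of them passed the filter, and so did all 12 oocyte and maternal markers. Summed macrophage markers reached at most 7.29 log2 CPM in LFD embryos but exceeded that in 12 HFD embryos, up to 12.60. Of the 16 macrophage genes, 8 passed the filter and 5 were called higher in HFD embryos, led by Apoe and the lysosomal protease gene Ctsd, while 7 had a median of 0 over all embryos and none was at 0 in every embryo. Cumulus markers summed to 5.24 ± 0.717 in HFD and 5.08 ± 0.828 in LFD embryos, and none of the 6 sperm genes passed the filter.

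Because reads that map to several places were left out, the counts cannot give the RNA share of ribosomal protein genes. These genes took a small share of the counts. Their counts made up 0.230%, 0.605% and 1.39% of a library in the lowest, median and highest HFD embryo and 0.251%, 0.627% and 1.03% in the lowest, median and highest LFD embryo. 73 of the 90 members had a count in every embryo. The level per length, as CPM per kilobase of exon averaged over all embryos, had a median of 29.04 over tested members. The median was 22.5 for large-subunit members and 30.3 for small-subunit members.

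Rplp0, a component of the stalk that recruits translation factors, had the highest level per length (655 CPM per kb), and it was followed by Rps27l (570) and by Rpl41 (290), the gene of a very short basic protein. Rps3a1 (135.8) was also among the 5 highest. Rplp0, Rps27l and Rpl41 together supplied 30.5% of all counts of the 90 members. At the other end of the tested members stood Rpl22l1 (1.66), Rpl3l (3.45), Rpl12 (3.48), Rpl13a (3.82) and Rpl36al (3.88). The order depends on the length used. Per kilobase of the main transcript Rps27l (808.9 CPM per kb) was above Rplp0 (799.8) and Rpl41 (665), and the 5 lowest held Rps20 (4.39) in place of Rpl12.

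Reads that map to several places were left out of the counts, and a ribosomal protein mRNA shares much of its sequence with its pseudogenes. Of the 75-base stretches of a member's main transcript, a median of 50.1% occurred in no other annotated gene, and 42 of the 84 tested members were under 50%. Rps27 was the lowest at 1.48%, since 98.5% of its stretches are also in the retrogene Rps27rt, which itself had a mean of 0.321 CPM. Rpl10 (8.14%) was near that end, and Rps27l (95.6%), Rpl10l (99.7%) and Rpl3l, all of whose stretches were unique, were at the other. Across the 84 members the rank correlation of this share with the level per length was 0.19, a description over genes that share libraries and sequence. Genes named as ribosomal protein pseudogenes summed to 94.4 ± 27.3 CPM in HFD and 87.9 ± 18.2 CPM in LFD embryos (SD), or 1.54% and 1.46% of the members' own sum.

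**Figure D1:**
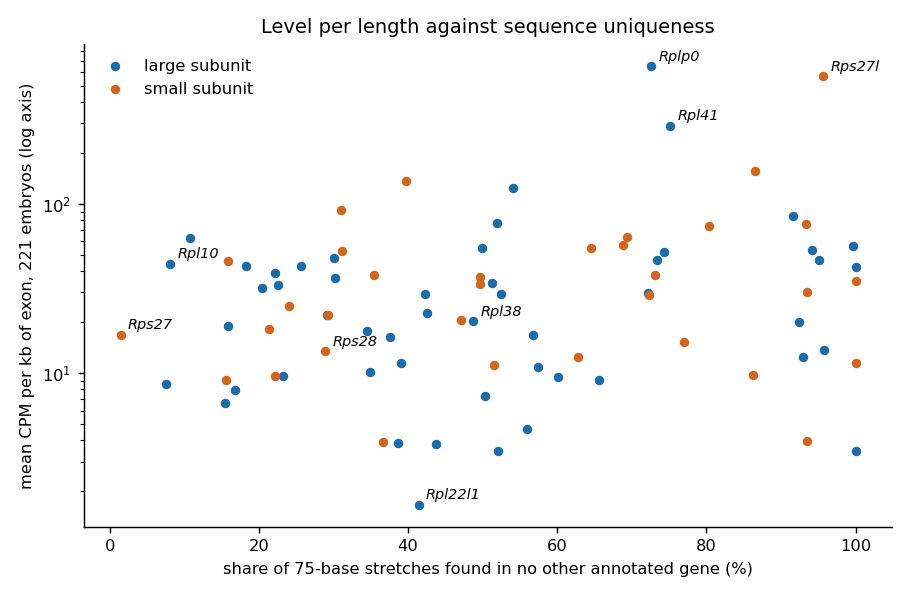
Mean level per length (CPM per kb of exon over all embryos, log axis) of the 84 tested members against the share of 75-base stretches of the transcript that occur in no other annotated gene, coloured by subunit. Rplp0, Rps27l and Rpl41 stand above the others, and Rps27 lies at 1.48% on the horizontal axis.

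Most ribosomal protein genes lay slightly above 0 in the diet comparison, and 3 of 84 passed the test. Rps27, Rpl38 and Rps28 were called higher in HFD embryos and no member was called lower (edgeR quasi-likelihood test, Benjamini-Hochberg adjusted p under 0.05 over 14820 genes). Over all genes tested, 1.26% were called higher and 0.891% lower, and the members' share was 3.57% higher. Without the adjustment 20 members above 0 and 1 below 0 had p under 0.05. DESeq2 called 4 higher and 0 lower, beside 1.55% and 1.57% of all genes. The calls depended on the model. Plain limma-voom called 5 members higher, beside 1.15% of all genes. With ranges of 10 embryo numbers within each diet as a random effect (correlation 0.0420) limma-voom called 0 members. In that fit 0.344% of all genes were called higher, and 12 members above and 0 below 0 had unadjusted p under 0.05. With the summed macrophage markers as a covariate edgeR called Rps28 alone (adjusted p = 0.0498), beside 0.0636 for Rps27 and 0.0622 for Rpl38. In that fit 0.999% of all genes were called higher. 74 of the 84 fold changes were positive (88.1%, against 54.03% of all genes tested), with a median log2 fold change of 0.11 beside 0.01 over all genes tested.

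**Figure D2:**
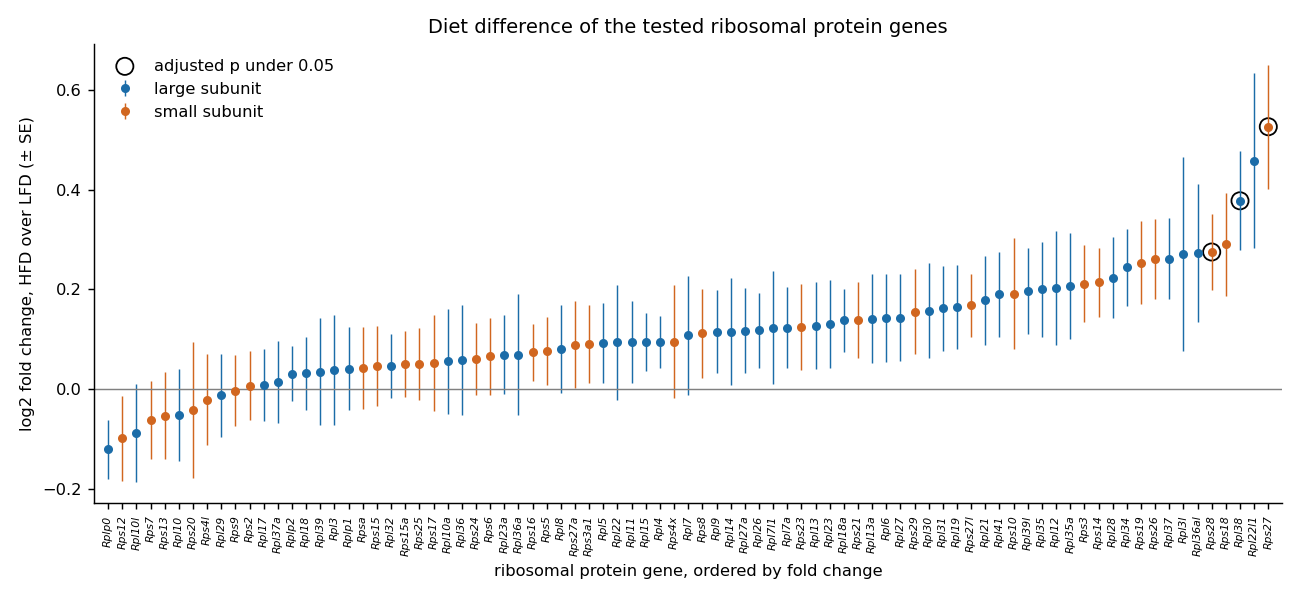
Log2 fold change of HFD over LFD embryos (± SE, edgeR) for 83 of the 84 tested members in rising order, coloured by subunit, with the 3 called members ringed. The values run from -0.12 for Rplp0 to 0.53 for Rps27, and most lie above 0.

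Rps27 encodes a zinc-finger protein of the small subunit and lies at chr3:90212522-90213651 (GRCm38). Its level was 0.499, 16.96 and 120.7 CPM in the lowest, median and highest HFD embryo and 0.318, 13.7 and 46.8 CPM in the lowest, median and highest LFD embryo. The diets overlapped over nearly the whole range, with 64.8% of HFD embryos above the LFD median and 4 embryos above the highest LFD embryo. The log2 fold change was 0.53 ± 0.124 (SE; edgeR adjusted p = 0.00514). Of its 75-base stretches 1.48% are unique, and which reads of Rps27 were placed was not tested.

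Rpl38 encodes a small protein of the large subunit known for its part in translating Hox mRNAs and lies at chr11:114668524-114672331. It had 2.66, 11.01 and 39.6 CPM in the lowest, median and highest HFD embryo, against 0.407, 8.67 and 32.9 CPM in LFD embryos. The LFD median was exceeded in 68.9% of HFD embryos, and 1 was above the highest LFD embryo. The log2 fold change was 0.38 ± 0.0991 (SE; edgeR adjusted p = 0.0154).

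Rps28 encodes a protein near the mRNA exit of the small subunit and lies at chr17:33819027-33824562. It had 6.28, 24.1 and 70.8 CPM in the lowest, median and highest HFD embryo and 8.26, 20.5 and 52.6 CPM in LFD embryos. The diets overlapped again, with 63.1% of HFD embryos above the LFD median and 2 above the highest LFD embryo. The log2 fold change was 0.27 ± 0.0763 (SE; edgeR adjusted p = 0.0259). An exon of Rps28 overlaps Kank3 on the other strand over 88 bases, and the counts were made with a strand setting although Smart-seq2 does not keep strand.

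**Figure D3:**
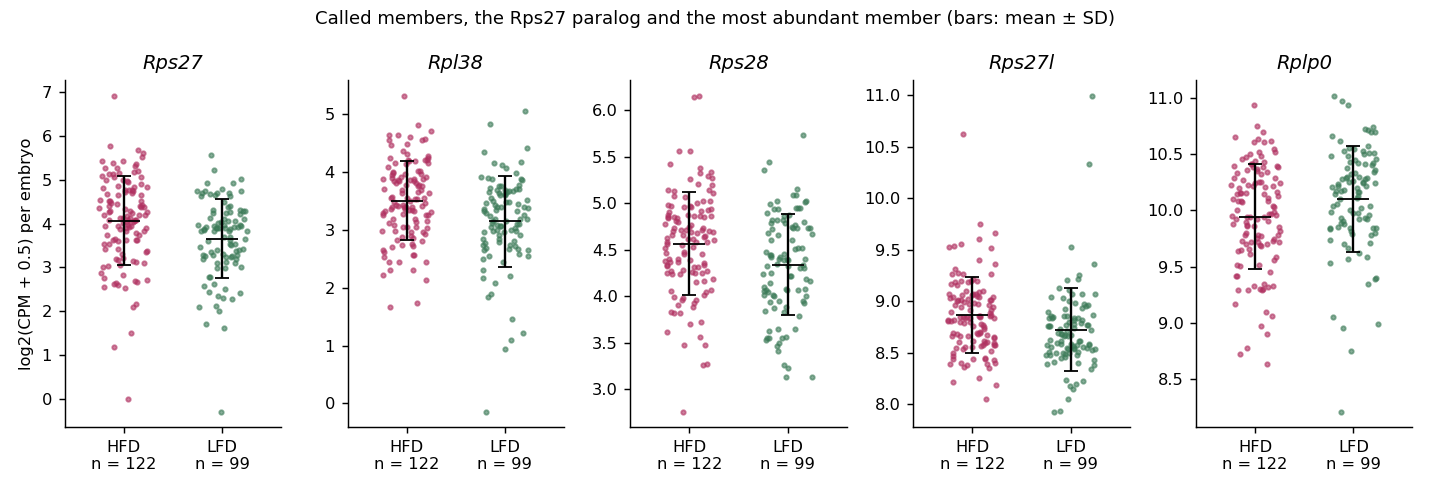
Level of Rps27, Rpl38, Rps28, Rps27l and Rplp0 in each embryo as log2(CPM + 0.5), one point per embryo, with bars for the mean ± SD and separate vertical axes. The diets overlap in every panel, and the HFD mean is the higher in all but Rplp0.

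The 3 calls were not made without the HFD embryos above every LFD embryo in summed macrophage markers. Of these 12, HFD embryos 33, 64 and 96 had 7.31, 7.59 and 7.75 log2 CPM, close to the highest LFD embryo (7.29). The others had 10.09 or more. In the 12 HFD embryos with more macrophage marker RNA than any LFD embryo, Rps27 averaged 5.20 ± 0.756 log2 CPM, against 3.94 ± 0.960 in the other 110 HFD embryos and 3.65 ± 0.899 in LFD embryos (SD). Rpl38 averaged 4.06 ± 0.570 in those 12, 3.45 ± 0.661 in the other HFD and 3.15 ± 0.787 in LFD embryos. Rps28 averaged 4.77 ± 0.609 in those 12, 4.54 ± 0.541 in the other HFD and 4.34 ± 0.542 in LFD embryos. Without the 12 embryos no member was called, where 0.664% of all genes were called higher. The log2 fold changes were 0.36 for Rps27 (edgeR adjusted p = 0.128), 0.31 for Rpl38 (0.0950) and 0.25 for Rps28 (0.0761). The members' median was 0.06, while 13 members above 0 and 0 below had unadjusted p under 0.05. No member was called without the 38 HFD embryos numbered 31 to 70 either, where 0.405% of all genes were called higher. In that fit the members' median was 0.09 and 12 members above 0 had unadjusted p under 0.05. What part macrophage RNA or embryo number has in the difference was not tested.

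Within ranges of 10 embryo numbers, 11 of which hold both diets, Rps27 was higher in HFD embryos in 9, Rpl38 in 9 and Rps28 in 8. For Rps27 the difference of mean log2 CPM ran from -0.82 among embryos 21 to 30 to 1.41 among embryos 81 to 90. The labels do not say whether the numbers stand for a plate or a date.

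Fold changes of similar or larger size than those of Rpl38 and Rps28 did not always pass the test. The low-level Rpl22l1, the paralog of Rpl22, stood at 0.46 ± 0.175 (log2, SE) with an edgeR adjusted p of 0.167, and Rps18 had 0.29 (0.125). Rps26 and Rpl37 had 0.26 each, with edgeR adjusted p of 0.0605 and 0.0607. The paralogs Rpl36al and Rpl3l had 0.27 each.

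The smallest fold changes belonged to Rplp0 (-0.12 ± 0.0592, SE), Rps12 (-0.10) and Rpl10l (-0.09), none of which passed the test. Rplp0 had 398, 999.9 and 1964 CPM in the lowest, median and highest HFD embryo and 296, 1153 and 2076 CPM in LFD embryos. Its edgeR adjusted p was 0.357, and 35.2% of HFD embryos were above the LFD median. Within the 11 number ranges the HFD mean of Rplp0 was the higher in 2.

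The summed level of all members did not separate the diets. In log2 CPM it averaged 12.56 ± 0.434 under HFD and 12.55 ± 0.342 under LFD (SD), a difference of 0.01, and 46.7% of HFD embryos were above the LFD median. Without Rplp0 the sums were 12.29 ± 0.460 and 12.24 ± 0.363. The sum was higher in HFD embryos in 9 of the 11 number ranges, with differences from -0.59 (embryos 21 to 30) to 0.45 (embryos 81 to 90). Several of these differences were near 0, at 0.0056 (embryos 1 to 10), 0.0085 (31 to 40), 0.0061 (71 to 80) and 0.0065 (91 to 100). By the median member HFD embryos were higher in 7 ranges. The 12 HFD embryos above every LFD embryo in macrophage markers had 12.87 ± 0.326 and the other 110 had 12.53 ± 0.432. HFD embryo 28 had the highest sum of all, 13.76, and also the highest mitochondrial share, 19.4% of counts.

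Large-subunit members had a median log2 fold change of 0.12, with 47 of 51 positive and 1 called, and small-subunit members had 0.09, with 27 of 33 positive and 2 called. The log2 ratio of summed large over summed small CPM per embryo was 0.62 ± 0.169 in HFD and 0.70 ± 0.171 in LFD embryos (SD), a difference of -0.07 ± 0.0231 (SE), for which no test was run. Rplp0, the large-subunit member with the most counts, had the lowest fold change of all members (-0.12). Rps27l, the small-subunit member with the most counts, had 0.17. What part either has in the ratio was not tested.

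Members up to the median exonic length of 1754.5 bases had a median of 0.11, with 38 of 42 positive, and longer ones had 0.10, with 36 of 42 positive. All 3 called members were among the shorter ones. By coding length the medians were 0.13 for members up to 456 bases and 0.09 for longer ones, with a rank correlation of -0.26 over the 83 members with an annotated coding sequence, and by exonic length the rank correlation was -0.02. Over all genes tested the median was 0.05 for genes over 1000 and up to 2000 bases, where the 35 members had 0.12, and 0.02 for genes over 2000 and up to 4000 bases, where the 30 members had 0.10.

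Paralog pairs were compared within each embryo, which cancels the library's depth. Rps27l, whose protein differs little from that of Rps27 and whose gene is a known p53 target, had by far the more counts of its pair. Reads that map to several places were left out, and 1.48% of the stretches of Rps27 but 95.6% of those of Rps27l are unique. The counts therefore cannot show which mRNA is the more abundant. Rps27l had 264, 460 and 1576 CPM in the lowest, median and highest HFD embryo and 243, 407 and 2044 CPM in LFD embryos. In 0 embryos did Rps27 have more counts. The mean counted level of Rps27l was 33.8 times that of Rps27 per kilobase of exon and 15.9 times per kilobase of transcript. The diet difference of Rps27l was 0.17 ± 0.0637 (log2, SE; edgeR adjusted p = 0.165).

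The log2 ratio of Rps27 over Rps27l was -4.85 ± 1.08 in HFD and -5.13 ± 0.945 in LFD embryos (SD), a difference of 0.28 (2-sided permutation test, p = 0.0427, adjusted p = 0.171 over 8 pairs). Rpl22, an RNA-binding protein of the large subunit, exceeded Rpl22l1 by 3.45 ± 1.53 in HFD and 3.93 ± 1.73 in LFD embryos (log2, SD), a difference of -0.47 (permutation p = 0.0332, adjusted p = 0.171). No pair passed the adjusted test, and the other 6 pairs had adjusted p from 0.432 to 0.879.

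In 3 other pairs the gene named as the paralog had the higher counted level per length, by exon and by transcript. Rpl39l, a copy known from the male germ line, had 42.3 CPM per kb of exon beside 20.1 for the X-linked Rpl39. Rps4l, annotated as a processed transcript, had 75.95 beside 20.6 for X-linked Rps4x, and Rpl7l1 had 13.7 beside 7.35 for Rpl7. The unique share was 92.4% for Rpl39 and 100% for Rpl39l. It was 47.1% for Rps4x but 93.3% for Rps4l, and 50.3% for Rpl7 but 95.8% for Rpl7l1. For the pairs of Rps4x and Rpl7 the counts therefore cannot show which mRNA is the more abundant. The pair of X-linked Rpl10 and the intronless Rpl10l, also known from spermatogenesis, turned with the length, since Rpl10l had 56.7 beside 44.2 for Rpl10 per kilobase of exon and 56.7 beside 113.6 per kilobase of transcript. Rpl10, of which 8.14% is unique, had more counts than Rpl10l in most embryos of either diet, and its log2 count ratio over Rpl10l was 0.69 ± 0.689 in HFD and 0.67 ± 0.720 in LFD embryos (SD). Rpl36a, the fourth X-linked member, had 6.63 beside 3.88 for Rpl36al, and Rpl3 had 7.96 beside 3.45 for Rpl3l, the copy known from muscle. The X-linked members had diet differences of 0.10 (Rps4x), -0.05 (Rpl10), 0.07 (Rpl36a) and 0.03 (Rpl39), none of which passed the test.

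Embryos varied far more in ribosomal protein mRNA than the diets differed. The standard deviation of log2 CPM over all embryos ranged from 0.390 for Rps27l to 1.32 for Rpl3l, followed by Rps20 (1.08) and Rpl22l1 (1.05). The members moved together, with a median correlation of 0.48 between pairs of members across all embryos and 98.9% of pairs above 0, values that share each library's depth and composition. Rpl17 (0.09), Rps27l (0.13), Rpl13a (0.14) and Rps15a (0.17) had the lowest mean correlation with the others, and Rps26 (0.61) had the highest.

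Most members had a positive slope on developmental timing, scored as log2 of the summed early 2-cell markers over the summed maternal markers. With diet in the model, 61 of 84 members had a positive slope on the score and 3 a negative one (edgeR adjusted p under 0.05), where 24.8% of all genes tested were positive and 27.2% negative. The median slope was 0.38 for members and -0.03 for all genes. Small-subunit members had a median of 0.40, with 26 of 33 called positive, and large-subunit members had 0.32, with 35 of 51. The rank correlation of the slope was -0.05 with exonic and 0.03 with coding length. A test of the difference in slope between diets called 0 of 84 members (edgeR, 1 at unadjusted p under 0.05) and 2 genes in all.

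Rpl36al (0.89 ± 0.131), Rpl7l1 (0.87 ± 0.106) and Rpl3l (0.84 ± 0.206) had the largest slopes (log2 per unit of score, SE), and each is the paralog of its pair. The other paralogs ranged widely, with 0.62 (Rpl10l), 0.30 (Rpl39l), 0.12 (Rps4l), -0.08 (Rpl22l1) and -0.20 (Rps27l). Among these, Rps4l and Rpl22l1 did not pass the timing test. Rpl7l1 had a median of 24.7 CPM in the 74 embryos with the lowest scores, 44.97 in the middle 73 and 63.5 in the 74 with the highest. Rpl41 likewise had 210.2, 330.1 and 428 CPM. Rps27 had a slope of 0.52, and the other called members, Rpl38 (0.15) and Rps28 (0.11), did not pass the timing test.

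Of the 6 members with a slope below 0, 3 passed the test. These were Rps15a (-0.25 ± 0.0633), Rpl17 (-0.24 ± 0.0679) and Rps27l (-0.20 ± 0.0615). Rps27l had medians of 460, 433 and 408 CPM over the same 3 sets of embryos while its paralog Rps27 had 9.94, 15.7 and 18.4 CPM. In LFD embryos alone these 3 had slopes of -0.09, -0.30 and -0.22 and did not pass the test, with 40 of 83 members called positive and 0 negative, beside 15.7% and 13.2% of all genes in that fit.

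**Figure D4:**
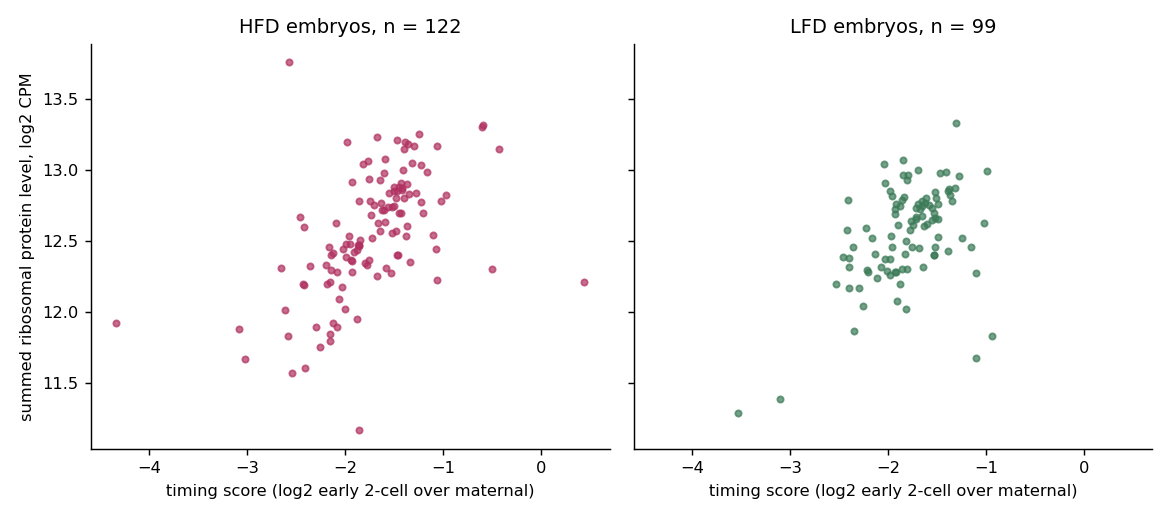
Summed level of the 90 members (log2 CPM) against the timing score in HFD and LFD embryos, one point per embryo. Embryos with higher scores mostly have higher sums in both panels, and 2 LFD embryos at low score and low sum lie apart from the rest.

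The summed level correlated with the score at r = 0.51 (rho = 0.61) in HFD embryos and at r = 0.47 (rho = 0.40) in LFD embryos. Without the 2 embryos farthest from the median score r was 0.58 in HFD and 0.28 in LFD embryos, so the linear relation in LFD embryos rests in good part on those 2. Of the parts of the score, the maternal sum went with the members at r = -0.63 over all embryos and the early 2-cell sum at 0.12, both being shares of the same library total. The mean score was -1.73 ± 0.564 in HFD and -1.80 ± 0.416 in LFD embryos (SD). With the score as a covariate 3 members were called for diet, beside 1.15% of all genes called higher and 1.05% lower. The members' median fold change was 0.07.

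The number of genes detected correlated with the summed level of the members at r = -0.08 over all embryos, -0.17 in HFD and 0.05 in LFD embryos. On this number, in units of 1000 genes, 28 of 84 members had a negative and 5 a positive slope (edgeR adjusted p under 0.05, beside 17.8% and 19.8% of all genes), with a median of -0.04. Rpl28 had the most negative slope (-0.20) and Rpl10a the most positive (0.11).

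**Figure D5:**
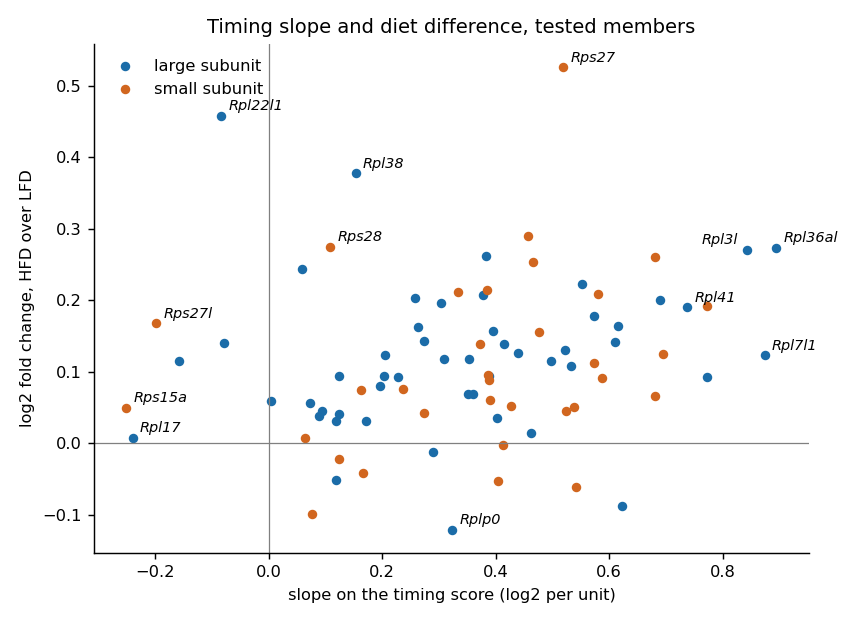
Log2 fold change of HFD over LFD embryos against the slope on the timing score (log2 per unit of score) for the 84 tested members, coloured by subunit. Most members lie right of 0 and above 0. Rps15a, Rpl17 and Rps27l are among the 6 left of 0, and Rplp0 is among the 10 below 0.

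The rank correlation of fold change with timing slope over members was 0.27, a description over genes measured in the same embryos. Among the 15 members with at least 90% unique sequence, 12 fold changes were positive with a median of 0.09 and 10 timing slopes were called positive. Among the 42 members under 50% unique, 37 fold changes were positive with a median of 0.09 and 29 timing slopes were called positive. The members with an exon overlapping a gene on the other strand include Rpl5, Rpl10a, Rpl12, Rpl15, Rpl18, Rpl22l1, Rpl23a, Rpl28, Rpl30, Rpl31, Rpl32, Rpl35, Rps2, Rps10, Rps12l1, Rps18, Rps25, Rps27a and Rps28, and reads of their overlaps cannot be assigned to a strand.

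Genes that work with the members were read from the same fits. Timing slopes counted here are those called (edgeR adjusted p under 0.05), beside 24.8% positive and 27.2% negative of all genes tested. For diet 1.26% of all genes were called higher and 0.891% lower. Of 40 ribosome assembly factors, 0 were called for diet in either direction (edgeR, 3 above 0 at unadjusted p under 0.05), with a median fold change of 0.09 and 33 above 0, and 34 had positive and 3 negative timing slopes. All 12 RNA polymerase I genes were tested, 0 were called for diet (2 above and 1 below 0 at unadjusted p under 0.05) and 11 had positive timing slopes, with a median slope of 0.57. Of 12 tested genes that signal to ribosomal protein mRNAs, including Mtor and Larp1, 0 were called for diet (2 above 0 at unadjusted p under 0.05), with a median of -0.02, and 3 had positive and 2 negative timing slopes. Of 9 other TOP mRNAs 0 were called for diet (1 above 0 at unadjusted p under 0.05), and 5 had positive and 2 negative timing slopes, with a median slope of 0.17. Eef1a1, the elongation factor that brings aminoacyl-tRNA, had a timing slope of -0.20. Of the ribosome proteins outside the symbol rule, Fau (0.14) and Rack1 (0.06) were not called for diet. Fau had a positive timing slope (0.40) and Rack1, a scaffold on the small subunit, had a negative one (-0.70).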

How the data were processed

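Single embryos were sequenced as paired-end Smart-seq2 libraries. The authors trimmed reads with Trim Galore 0.6.6, aligned them with STAR 2.7.10a to GRCm38 carrying the ST mitochondrial genome, and deposited raw counts of reads per gene from featureCounts 2.0.3 (exons, Ensembl release 102, strand setting 2, multi-mapping reads left out). The 122 HFD and 99 LFD embryos were grouped by the diet in their titles. Counts were tested with edgeR 4.0.16 (quasi-likelihood, TMM, filterByExpr) over the whole table, with DESeq2 1.42.0 and limma 3.58.1 as alternatives, in R 4.3.3. The counting error of CPM is smallest in the deepest libraries. Levels per embryo are CPM of total counts, with 0.5 added before log2. Paralog ratios add 0.5 to each count and were tested with 100000 permutations. Uniqueness was computed on GENCODE M21 transcripts and starts are from RefSeq. Fits were tested on simulated data.

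Members and gene lists were chosen with earlier results of these data known. Named are all called members, the 5 highest and 5 lowest levels per length, the 3 largest and 3 smallest fold changes and timing slopes, the 3 most variable, the paralog pairs, the X-linked and the antisense-overlapping members, and called genes of other lists. Rps26, Rpl37, Rpl41 and genes named beside them for context outside these rules were chosen after their values were seen. Deposited counts were analysed as they stand, and embryo 28 and all others stayed in. Some genes that these rules would name are not reported here, though counts and medians over members include them.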

Additional observations from a re-analysis of the deposited data

How the results depend on the processing

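Alternatives moved the number of members called higher for diet, and none called a member lower. The share of all genes called higher in the same fit is in brackets. From 3 of 84 (1.26%) the number became 9 of 90 with no low-count filter (10.9% of all 45512 genes then tested). It was 5 with limma-voom (1.15%) and 6 with number ranges as a random effect (1.27%). It was 8 with edgeR and number ranges as a covariate (1.83%) and 6 without the libraries with few genes (2.17%). With the macrophage marker level as a covariate it was 1 (0.999%), Rps28. With the Y-linked level as a covariate it was 2 (1.13%), Rps27 and Rpl38, with an edgeR adjusted p of 0.0695 for Rps28. Without HFD embryos 31 to 70 it was 0 (0.405%). Chosen after seeing the data, it was 0 without the 12 HFD embryos above every LFD embryo in macrophage markers (0.664%). It was also 0 with number ranges within each diet as a random effect (0.344%). By limma-voom over shared numbers without a block it was 6 (1.95%). With the embryo number as a replicate block limma-voom called 9 (2.38%). The numbers did not pair the embryos, since over 94 shared numbers the median correlation of same-numbered embryos was 0.0151 and 25 exceeded 0.1. The summed Y-linked level (log2 CPM) had a mean of 3.89 under HFD and 3.08 under LFD. The cause of these changes was not tested. The members' median fold change ranged from 0.06 to 0.12 and stayed positive in every setting listed.

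Timing slopes called positive fell from 61 to 40 of 83 in LFD embryos alone and negative ones from 3 to 0. On genes detected, positive calls went from 5 to 2 in HFD embryos alone, 1 without the libraries with few genes and 10 with timing as a covariate, and negative calls from 28 to 13 in LFD embryos alone and 15 with timing as a covariate. The Rps27 over Rps27l difference was 0.265 without the libraries with few genes (permutation p = 0.0628) and 0.20 without HFD embryos 31 to 70 (0.197), and that of Rpl22 over Rpl22l1 was -0.36 without the libraries with few genes (0.0916). That of Rpl3 over Rpl3l turned to 0.17 in both settings, and without HFD embryos 31 to 70 that of Rpl10 over Rpl10l turned to -0.0022 and that of Rps4x over Rps4l to -0.0059.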
